A study of Homo sapiens with 38 samples.

Results

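The Sp1 IDR-CTCF DBD chimera joins the N-terminal intrinsically disordered region (IDR) of Sp1 to the zinc finger DNA-binding domain (DBD) of CTCF, so that an Sp1 segment without its own DNA-binding domain is carried by a domain with another sequence preference. The chimera and the endogenous Sp1 of the same cell line were mapped by CUT&RUN, in which an antibody directs a nuclease to cut the DNA around its target. The members described here are all 166 regions of the mouse anti-FLAG peak list of that line, which marks the chimera. They were sorted by whether they overlapped, by at least 1 bp, the 2172 rabbit anti-V5 peaks or the 1413 mouse anti-V5 peaks of the same line, both of which mark endogenous Sp1.

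The cells were U2OS, a human osteosarcoma line, in which both copies of SP1 carry a V5-Halo tag in a single clone. Every line used here shares that knock-in. The chimera, an amino-terminal SNAPf and a carboxy-terminal 3xFLAG tag were expressed from the AAVS1 safe-harbor locus under a doxycycline-inducible promoter, with 1 µg/ml doxycycline for 36 h, sorting for transgene-positive cells and another 36 h before the assay. The labels call the Sp1 segment an activation domain. The chimera line had 6 of the 38 samples of the series, 2 biological replicates for each of 3 antibodies. For comparison, V5 lists of the parental line and of the Sp1 IDR-LacI line (the same segment on the bacterial lac repressor) were used, together with anti-FLAG lists of the lines expressing the CTCF DBD alone, full-length Sp1 (Sp1 WT), SNAPf-NLS (a tag with a nuclear localization signal and no DNA-binding domain) or no transgene. Each list joins both replicates, so the overlaps below have no replicate error of their own, and their intervals and tests cover counting over peaks only. The lists hold no read numbers, so the sequencing depth behind a value is unknown here, and the study's own listing of read numbers was not used here.

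Sp1 is a zinc finger activator that recognizes GC-rich promoter elements, in particular the GC box, and is found at many promoters of broadly expressed genes. CTCF is a zinc finger protein that binds a long, well-defined motif at insulators, at the anchors of chromatin loops held by cohesin and at a subset of promoters. In the chimera, the CTCF fingers supply DNA recognition, while the Sp1 segment is the part known for contacts between activators and with coactivators.

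Sequences of both kinds were present under the chimera peaks. The first set below holds the GC box (GGGCGG, searched on both strands) nearest to the chimera summit at the 6 highest ranked chimera peaks in unique sequence that overlapped both V5 lists and held a GC box within 100 bp of the summit. Peaks in repeated sequence had at least 50% of the 31-base words around the summit in more than 1 place in the genome, and those in unique sequence had not and were also on neither control list (anti-FLAG of SNAPf-NLS or of the parental line). The 6 are shown because they are sites of the CTCF-directed chimera that carry the Sp1 element. Each run is 30 bases of the hg38 reference, 5′ to 3′ on the strand of the motif, with the GC box in capitals.
ZNF808, chr19:52527348-52527377, minus strand: aaagccctgcctGGGCGGcatgtacgatgt
CEP85, chr1:26234089-26234118, plus strand: gaggatagaaagGGGCGGgaagccggcgcg
MED20 and BYSL, chr6:41921223-41921252, minus strand: ttagaaacctcgGGGCGGgaatccgcagat
GSTZ1, chr14:77321228-77321257, plus strand: ggagaccctgggGGGCGGggtcagaagtga
HNRNPA2B1 and CBX3, chr7:26200987-26201016, minus strand: cgccaaggcaggGGGCGGgaccctattcca
NHEJ1, chr2:219160363-219160392, minus strand: ctgttatagctgGGGCGGgtggaagcggga

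The second set holds 12-base matches to the core of the CTCF motif, in capitals, within the same distance of a chimera summit, for 6 of the 7 such peaks in unique sequence. It is shown because an exact match was found at only 15 of the 166 chimera peaks. CXXC1 and TPR overlapped the rabbit anti-V5 list, and the others overlapped no V5 list of the line.
CXXC1, chr18:50287759-50287788, plus strand: cgctgcaaaCCAGTAGGTGGCcggcctaga
TPR and ODR4, chr1:186375606-186375635, plus strand: gacactgagCCACTAGAGGGCatcggtccc
SSH2, chr17:29931523-29931552, minus strand: tcctgatcaCCACCAGGGGGCaaaagccta
CEACAM7, chr19:41706817-41706846, plus strand: ccctcctgtCCACCAGAGGGCggcagagtt
ESYT1, chr12:56126333-56126362, plus strand: tgcttatcaCCACCAGGTGGCacctgggca
ANKRD53, chr2:70977543-70977572, minus strand: cggacagggCCACCAGAGGGCtccttgatc
At CEACAM7 the last bases of the core and the 2 bases after it also spell a GC box.

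Endogenous Sp1 was listed at a minority of the chimera peaks. Of 166, 39 overlapped a rabbit anti-V5 peak (23.5%, 95% Wilson interval 17.7 to 30.5) and 32 a mouse anti-V5 peak (19.3%, 14 to 25.9). Both V5 antibodies listed 25 of them, rabbit alone 14, mouse alone 7 and neither 120. These classes are called with Sp1 (46 peaks, in either V5 list) and without Sp1 (120 peaks) below. Without Sp1 means only that a peak was in neither V5 list of the line, and does not show that Sp1 was absent. Of these 120 peaks, 39 overlapped an Sp1 WT peak. The paper also reports that permeabilization for CUT&RUN released most of the Sp1 from the nucleus. Seen from the endogenous protein, chimera peaks were rare: they covered 1.80% of the rabbit and 2.26% of the mouse anti-V5 peaks.

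The same V5 lists overlapped other anti-FLAG lists to different extents. Among all 649 peaks of the CTCF DBD alone, 11.9% overlapped the rabbit and 7.70% the mouse anti-V5 list of the chimera line. Among the 295 SNAPf-NLS peaks the shares were 3.39% and 6.44%, and among the 5151 Sp1 WT peaks 33.4% and 22.2%. With each list reduced to its 166 highest ranked peaks, a reduction chosen after the values were seen, the CTCF DBD overlapped at 12% (7.94 to 17.9) and 8.43% (5.09 to 13.7), and Sp1 WT at 88.0% and 89.2%. The chimera shares lay above those of the CTCF DBD and far below those of full-length Sp1. The difference between chimera and CTCF DBD was not tested, and 119 of the 166 chimera peaks (71.7%) overlapped a CTCF DBD peak.

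**Figure D1:**
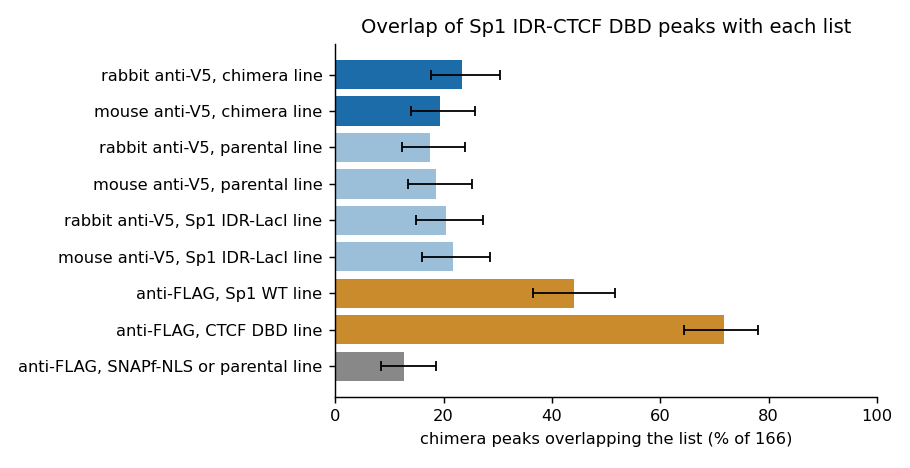
Share of the 166 chimera peaks (x axis, percent) that overlap each of the other peak lists (y axis), with 95% Wilson intervals as error bars. The V5 lists of the 3 lines lie between 17.5% and 23.5%, the Sp1 WT list at 44% and the CTCF DBD list at 71.7%.

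A comparison with other lines asks whether endogenous Sp1 is listed at chimera sites more often when the chimera is present. Of the 166 chimera peaks, 29 overlapped a rabbit anti-V5 peak of the parental line, which has no chimera (17.5%), against 39 in the chimera line. Discordant peaks numbered 14 in the chimera line only and 4 in the parental line only (two-sided exact binomial test, p = 0.031, adjusted p = 0.16 over 16 tests by the Benjamini-Hochberg method). The mouse antibody gave 32 against 31 peaks, with 11 and 10 discordant (exact p = 1, adjusted p = 1). Against the Sp1 IDR-LacI line the rabbit counts were 39 and 34 (12 and 7 discordant, exact p = 0.36, adjusted p = 0.66), and the mouse counts 32 and 36 (6 and 10 discordant, exact p = 0.45, adjusted p = 0.73). None of the 4 comparisons passed the adjusted threshold of 0.05. The lists also differed in length. The rabbit lists held 2172 (chimera line), 1987 (parental) and 2126 (Sp1 IDR-LacI) peaks, and the mouse lists 1413, 1830 and 1739. Cut to equal length within each antibody, the counts against the parental line were 36 and 29 (rabbit) and 32 and 26 (mouse). Against the Sp1 IDR-LacI line they were 36 and 33 (rabbit) and 32 and 30 (mouse), and again none passed.

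The 14 rabbit sites listed in the chimera line and not in the parental line were a mixed set. Of these, 6 were in repeated sequence or on a control list, among them 2 ribosomal DNA sites and an unplaced contig of chromosome 1. The 8 in unique sequence were MZT2B, LRIG2, KAZALD1, RNPEPL1, SLC17A7, CXXC1, TBC1D8 and MIRLET7A1HG, and 9 of the 14 appeared in some other V5 list of the parental or the Sp1 IDR-LacI line. The 4 sites with the opposite pattern were ZFP91 (start shared with the readthrough gene ZFP91-CNTF), EMC9, G3BP2 (start shared with USO1) and a peak whose nearest start was ENSG00000285761, all in unique sequence and all within 1000 bp of a start. Of the 11 mouse anti-V5 sites listed in the chimera line only, 9 were in repeated sequence or on a control list. Among the 10 listed in the parental line only, it was 1. Without repeated sequence the mouse counts were 22 in the chimera line and 29 in the parental line (exact binomial p = 0.065, adjusted p = 0.21).

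Only 8 of the 46 peaks with Sp1 were in none of the 4 V5 lists of the parental and Sp1 IDR-LacI lines. Of these, 6 were in repeated sequence. The other 2 were MZT2B, which encodes a subunit of the gamma-tubulin complex, and CXXC1, which encodes a CpG-binding subunit of a histone H3 lysine methyltransferase complex. All 8 overlapped a CTCF DBD peak. At MZT2B (chr2:130181690-130182225, start shared with SMPD4) the chimera had −log10 p of 16.6 and 23.5 in its replicates and rank 16, and rabbit anti-V5 had 9.39 and 19, rank 2061 of 2172. At CXXC1 (chr18:50287299-50287947, 13 bp from the start, in the UTR) the chimera had 16 and 11.7, and rabbit anti-V5 12.5 and 16.6, rank 1661. Both sites thus stood in the lower part of the rabbit list, and neither was in the mouse list.

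In the other direction, 19 chimera peaks overlapped all 6 V5 lists of the 3 lines, 18 of them in unique sequence, and 108 overlapped none. The 19 included the starts of ZNF808, CEP85, GSTZ1, HNRNPA2B1, USP5, CTCF, NHEJ1, QRICH1, G3BP1, WBP2, KIFC1 and HINT2. Sp1 was therefore listed at these sites with no chimera in the cell. Of the 120 peaks without Sp1, 12 overlapped a V5 list of the parental or the Sp1 IDR-LacI line, 8 of them in unique sequence. G3BP2 was in all 4 of those lists and in neither V5 list of the chimera line.

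Peaks with and without Sp1 had similar ranks in the chimera list. Peaks were ranked by the smaller of the −log10 p values of the 2 replicates, and a percentile of 100 marks the top of a list. Median percentile in the chimera list was 53.3 for the 46 peaks with Sp1 and 49.4 for the 120 without. Among the 83 highest ranked chimera peaks 24 had Sp1 (28.9%), and among the 83 lowest ranked 22 (26.5%), a difference that did not pass (two-sided Fisher's exact test, p = 0.86, adjusted p = 0.99). By quartiles of the list from the top, the shares were 26.8%, 31%, 36.6% and 16.7%. The 6 highest ranked chimera peaks all lacked Sp1, and the highest ranked with it were a repeat at rank 7 and ZNF808 at rank 8.

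In the rabbit list, the 39 shared peaks had a median rank of 942 of 2172 (percentile 56.7, range 4.67 to 92.7). Its upper 1086 peaks held 26 of them and its lower 1086 held 13 (2.39% against 1.20%, Fisher's exact p = 0.051, adjusted p = 0.16). This difference depended on the replicate used for ranking: by the first replicate alone the counts were 27 and 12 (exact p = 0.022, adjusted p = 0.12), and by the second alone 20 and 19 (exact p = 1, adjusted p = 1). In the mouse list, the 32 shared peaks had a median rank of 934 of 1413 (percentile 34, range 3.86 to 92.0), with 13 in the upper 706 and 19 in the lower 707 (exact p = 0.37, adjusted p = 0.66). The top quartile of either V5 list held few of them, 5 of 543 rabbit peaks and 2 of 353 mouse peaks. The lowest quartile held as few in the rabbit list, 5 of 543, and 8 of 354 in the mouse list. The second quartile held 21 of the 39 rabbit peaks, and the second and the third quartile each held 11 of the 32 mouse peaks.

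Across the 39 peaks shared with rabbit anti-V5, Spearman's rho between the 2 values was -0.31, and across the 32 shared with mouse anti-V5 it was 0.0491. In unique sequence the same figures were -0.212 (31 peaks) and 0.0209 (22 peaks). Rabbit and mouse anti-V5 values, by contrast, gave rho 0.565 across the 25 peaks in both. These figures are across peaks of the same libraries, and peaks are not independent replicates. At the 46 peaks with Sp1 the chimera replicates gave rho 0.0237 between themselves (0.146 over all 166), so the chimera list holds little reproducible order there that another list could follow. The anti-V5 replicates gave 0.726 for rabbit and 0.778 for mouse at the shared peaks (0.844 and 0.880 over their whole lists).

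**Figure D2:**
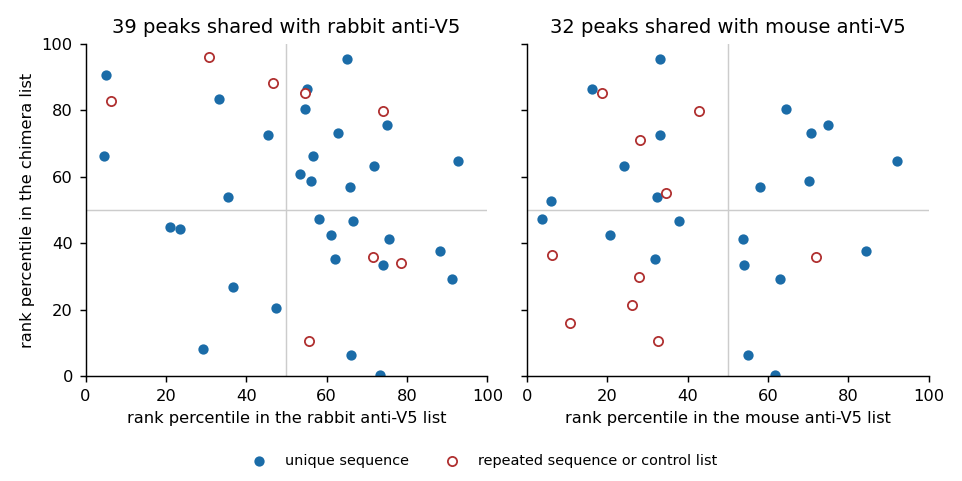
Rank percentile of each shared peak in the chimera list (y axis) against its percentile in the rabbit (left, 39 peaks) or mouse (right, 32 peaks) anti-V5 list (x axis), where 100 is the top of a list. Filled points are in unique sequence, open points in repeated sequence or on a control list, and the grey lines mark the middle of each list. The points spread over all parts of the left panel, and in the right panel few lie above percentile 75 of the mouse list.

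Of the 10 highest ranked chimera peaks in both V5 lists, 8 were in unique sequence. ZNF808, which encodes a KRAB zinc finger protein, held rank 8 (chr19:52527072-52527639, summit 279 bp from the start, outside any annotated gene). Its chimera −log10 p was 17.5 and 34.1 in the first and the second replicate, its rabbit anti-V5 value 23.1 and 23.9 and its mouse anti-V5 value 17.1 and 21.9. The chimera replicates were further apart there than those of either V5 antibody.

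CEP85, which encodes a centrosomal protein, held rank 23 (chr1:26233673-26234400), with chimera values of 16.1 and 19, rabbit values of 19.3 and 23.7 and mouse values of 13.3 and 26. The peak at chr6:41920791-41921601, rank 33, lay between the starts of MED20, a Mediator subunit, and BYSL, a ribosome biogenesis factor, with chimera values of 14.9 and 19.3, rabbit values of 23.8 and 19.1 and mouse values of 30.5 in both replicates. GSTZ1, an enzyme of tyrosine breakdown, shares its start region with POMT2, a protein O-mannosyltransferase (rank 41, chr14:77320364-77321540, in an intron). The chimera values there were 19.8 and 14.3, the rabbit values 29.6 and 36.7 and the mouse values 43.6 and 39.0, so that at GSTZ1 every V5 value lay above both chimera values.

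HNRNPA2B1, an RNA-binding protein, and CBX3, the heterochromatin protein HP1 gamma, are transcribed away from each other from a shared CpG-rich start region (rank 45, chr7:26200773-26201182, in a UTR). The chimera had 14 and 14.8, rabbit anti-V5 22.4 and 27.2 and mouse anti-V5 34.3 and 43.1. At USP5, a deubiquitinase (rank 46, chr12:6851345-6852603, in an intron), the chimera had 14 and 16.4, rabbit 20.9 and 16.5 and mouse 17.4 and 17.1. The USP5 summits were 1027 bp (rabbit) and 680 bp (mouse) from the chimera summit, so the overlap joined separate summits of wide peaks. The same held for the peak near SLC17A7, a vesicular glutamate transporter (rank 59, chr19:49443012-49444106, 1351 bp from the start), where chimera values of 13.2 and 13.8 stood beside rabbit values of 57.1 and 71.5 and mouse values of 75.5 and 103, at summits 815 and 813 bp away. CA13, a carbonic anhydrase that shares its start region with RBIS, held rank 62, with chimera values of 13.0 and 14.3, rabbit values of 31.5 and 27.2 and mouse values of 15.2 and 22.9. The other 2 of the 10 were a satellite repeat beside the chromosome 10 centromere (rank 25) and the 5.8S ribosomal RNA copy RNA5-8SN2 (rank 34).

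Ordered by mean percentile over the 3 lists, SLC17A7 came first (83.1) and GSTZ1 next (75.1). By this order 4 further sites were named. The CTCF gene itself was among them: the chimera summit lay 4 bp from its start, shared with CTCF-DT (rank 69, chr16:67562029-67562884, in the UTR), with chimera values of 18.4 and 12.8, rabbit values of 19.7 and 24.5 and mouse values of 41.4 and 34. That peak overlapped no CTCF DBD peak, it did overlap an Sp1 WT peak, and it was in the V5 lists of all 3 lines, with V5 summits 384 and 429 bp from the chimera summit. HINT2, a mitochondrial nucleotide hydrolase (rank 118, chr9:35814873-35815613), had chimera values of 11.1 and 12.5 beside rabbit values of 53.1 and 54.4 and mouse values of 29.4 and 41.1. NHEJ1, a factor of DNA end joining (rank 72, chr2:219159956-219160887, in an intron), had 13.8 and 12.7 beside 23.6 and 25.7 (rabbit) and 26 and 33.5 (mouse). The noncoding ENSG00000260857 (rank 104, chr16:35505952-35506587) had 11.3 and 14.3 beside 45.3 and 53.9 (rabbit) and 51.0 and 59.0 (mouse). Across all shared peaks the V5 value exceeded the chimera value at 34 of 39 (rabbit) and 26 of 32 (mouse), but −log10 p also moves with depth and antibody, so it is no measure of relative occupancy.

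**Figure D3:**
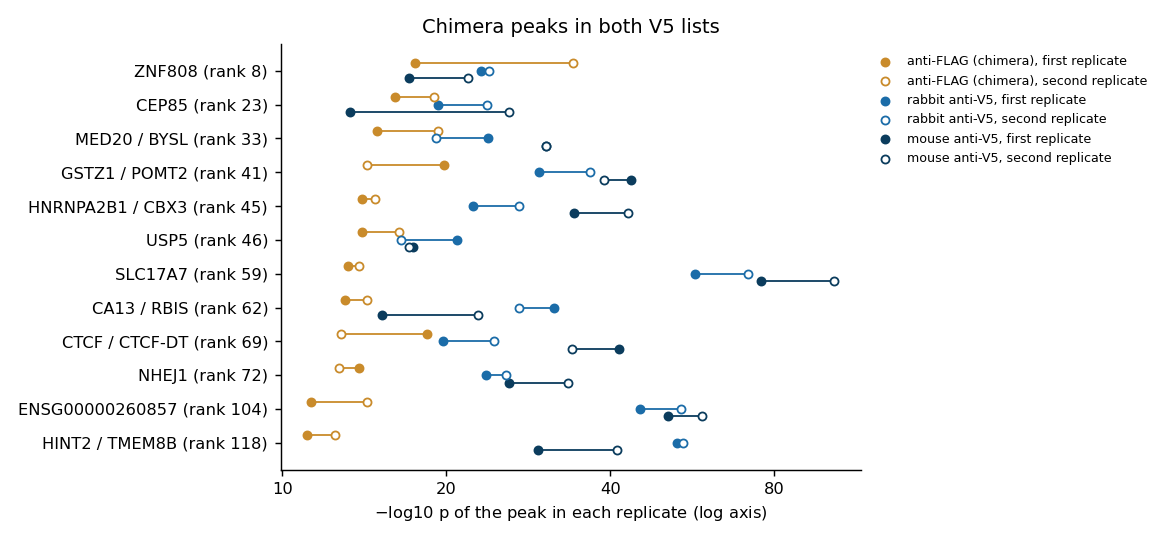
−log10 p of each replicate (x axis, log scale) for anti-FLAG (chimera), rabbit anti-V5 and mouse anti-V5 at the 12 named chimera peaks in both V5 lists and in unique sequence (y axis, with chimera rank). Filled points are the first and open points the second replicate of the deposited lists. The chimera values lie between 11.1 and 34.1, and the widest gap to the V5 values is at SLC17A7.

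The chimera summit at shared peaks lay apart from the Sp1 summit. In unique sequence, the median distance from chimera to rabbit anti-V5 summits was 134 bp (31 peaks, quartiles 65.5 and 212) and to mouse anti-V5 summits 146 bp (22 peaks, 108 and 315). The rabbit and mouse V5 summits at the same sites were 42.0 bp apart (21 peaks), and the chimera and CTCF DBD summits 28.5 bp apart (90 peaks). Within 100 bp of the chimera summit lay 35.5% (21.1 to 53.1) of the rabbit and 22.7% (10.1 to 43.4) of the mouse summits, against 81.1% (71.8 to 87.9) of the CTCF DBD summits. Distances to Sp1 WT summits, from the same anti-FLAG antibody as the chimera, fell between (median 93.0 bp, 57 peaks). At the 32 sites with Sp1 and a CTCF DBD peak the chimera and CTCF DBD summits were 26 bp apart at the median, close to the 23 bp over all 119.

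**Figure D4:**
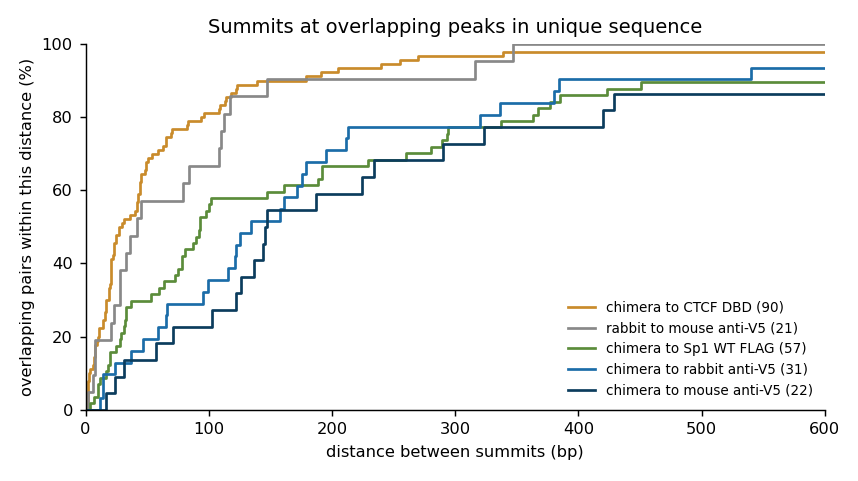
Cumulative share of overlapping peak pairs (y axis, percent) whose summits lie within a given distance (x axis, bp), in unique sequence, with the number of pairs in the legend. The curves of chimera to CTCF DBD and of rabbit to mouse anti-V5 rise first, and those of chimera to either anti-V5 list last, with 81.1% of the CTCF DBD summits and 35.5% of the rabbit summits within 100 bp.

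A GC box was more often near the Sp1 summit than near the chimera summit of the same site. At 31 peaks shared with rabbit anti-V5 in unique sequence, 24 held a GC box within 100 bp of the rabbit summit and 18 within 100 bp of the chimera summit. Of the 31, 8 held it at the rabbit summit only and 2 at the chimera summit only. At the 22 shared with mouse anti-V5 the counts were 19 and 15, with 6 at the V5 summit only and 2 at the chimera summit only. In the direction of transcription from the named start, the chimera summit lay further downstream than the rabbit summit at 21 of 30 shared promoters. It lay further downstream than the mouse summit at 15 of 21. Beside CTCF DBD summits it was further downstream at 32 of 69. These counts were made after the summit distances were seen and are given as a description. The named start was the one nearest to the chimera summit, with protein-coding starts first. At promoters with starts in opposite directions, this rule can by itself place the chimera summit further downstream.

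A GC box lay within 100 bp of the chimera summit at 21 of 46 peaks with Sp1 (45.7%, 32.2 to 59.8) and 33 of 120 without (27.5%, 20.3 to 36.1), a difference that did not pass the adjusted threshold (two-sided Fisher's exact test, p = 0.041, adjusted p = 0.16). Of the 25 peaks in both V5 lists 16 held it (64.0%), against 5 of 14 for rabbit alone and 0 of 7 for mouse alone, which allows a share of up to 35.4% by the Wilson interval. With both lists set against neither, an alternative setting, the difference passed (16 of 25 against 33 of 120, exact p = 8.7e-04, adjusted p = 0.014), and so did the comparison without peaks on a control list (21 of 37 against 33 of 108, adjusted p = 0.047). For reference, 47.0% of the first starts of 20033 protein-coding genes and 6.36% of windows 2000 bp from chimera summits held a GC box in windows of the same length. Among all rabbit and mouse anti-V5 peaks it was 79.6% and 83.8%, so a higher share with Sp1 is in part set by the definition of the class.

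A transcription start lay within 1000 bp of the summit at 35 of 46 peaks with Sp1 (76.1%, 62.1 to 86.1) and 68 of 120 without (56.7%, 47.7 to 65.2; Fisher's exact p = 0.022, adjusted p = 0.16). In both V5 lists it was 22 of 25 (88.0%), 17 of them protein-coding starts and 5 noncoding starts only, and for rabbit alone 12 of 14 (85.7%), 10 of them protein-coding. Both lists against neither passed by the same exact test (adjusted p = 0.024), as did the comparison without repeated sequence (31 of 32 against 63 of 89, adjusted p = 0.02) and without peaks on a control list (35 of 37 against 68 of 108, adjusted p = 0.0018). Starts lay at 87.1% of all rabbit and 86.8% of all mouse anti-V5 peaks, so a higher share with Sp1 is in part set by the definition of the class. V5 peaks with the chimera were at starts in 87.2% against 87.1% of the others (rabbit) and 71.9% against 87.2% (mouse). With starts counted within 5000 bp the difference was smaller (37 of 46 against 87 of 120, exact p = 0.33, adjusted p = 0.66), and so it was with Sp1 counted only where summits lay within 200 bp (24 of 34 against 79 of 132, exact p = 0.32, adjusted p = 0.55). The peak near SLC17A7 was the exception among the 32 peaks with Sp1 outside repeated sequence. At least 2 protein-coding starts lay within 1000 bp at 11 of the 46 peaks with Sp1 and 11 of the 120 without, as at HNRNPA2B1 and CBX3 or MED20 and BYSL.

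**Figure D5:**
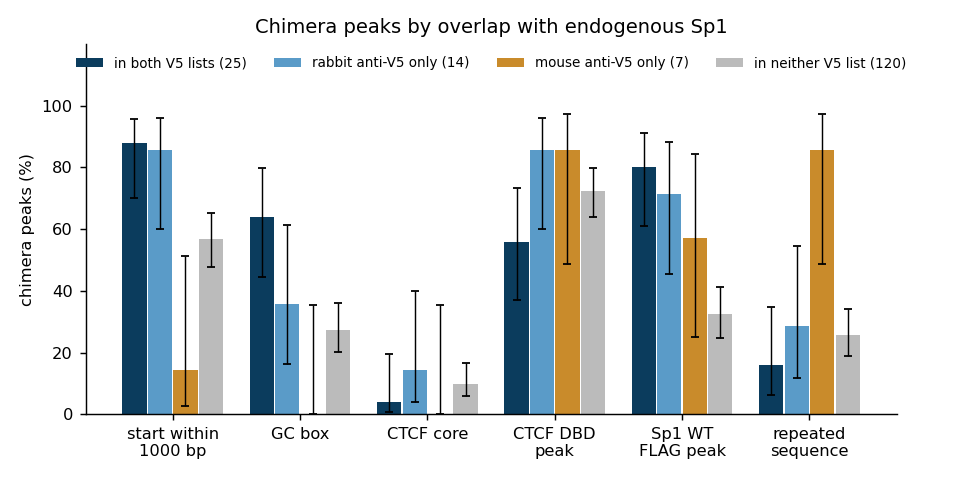
Share of chimera peaks (y axis, percent, 95% Wilson intervals as error bars) with each feature (x axis), for peaks in both V5 lists, rabbit anti-V5 only, mouse anti-V5 only or neither, with the number of peaks in the legend. Starts are at 88.0% of the peaks in both V5 lists and 85.7% of those of rabbit anti-V5 only, GC boxes at 64.0% of the peaks in both, and repeated sequence in the 7 of mouse anti-V5 only (85.7%).

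The CTCF core was found at 3 of 46 peaks with Sp1 (6.52%, 2.24 to 17.5) and 12 of 120 without (10.0%, 5.81 to 16.7; Fisher's exact p = 0.76, adjusted p = 0.94). With 1 mismatch allowed it was found at 4 and 26. The exact core was in 0.359% of first starts of protein-coding genes and 0.606% of windows 2000 bp from chimera summits, so both classes lay above those shares. CTCF DBD peaks were overlapped by 32 of 46 with Sp1 (69.6%) and 87 of 120 without (72.5%; exact p = 0.7, adjusted p = 0.94). Sp1 WT peaks were overlapped by 34 of 46 (73.9%, 59.7 to 84.4) and 39 of 120 (32.5%, 24.8 to 41.3), given as a description because the anti-V5 antibodies and the Sp1 WT construct follow the same protein. The median share of G and C in the 201 bases was 61.4% with Sp1 and 61.2% without, and the median number of CpG 13.5 and 11.0. CCAAT boxes (CCAAT) were at 15 of 46 and 29 of 120, ETS sites (CCGGAAG) at 3 and 5 and NRF1 sites (GCATGCGC) at 0 and 2, against 26%, 10.2% and 3.0% of the first starts of protein-coding genes.

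Among the Sp1 peaks themselves, those with the chimera held a GC box somewhat less often, a difference that shrank without repeated sequence. For rabbit anti-V5 it was 28 of 39 (71.8%) against 1700 of 2133 (79.7%; Fisher's exact p = 0.23, adjusted p = 0.53), and for mouse anti-V5 21 of 32 (65.6%) against 1163 of 1381 (84.2%; exact p = 0.012, adjusted p = 0.16). Neither passed after adjustment. The mouse difference turned in direction without peaks on a control list (21 of 24 against 1163 of 1370), since 8 of the 32 shared mouse peaks were on a control list (25.0%) against 0.797% of the others. Without repeated sequence the counts were 19 of 22 against 1110 of 1280 for mouse (-0.355 percentage points). For rabbit they were 24 of 31 against 1632 of 1984 (-4.84 percentage points). The CTCF core was at 1 of 39 rabbit peaks with the chimera and 3 of 2133 without (exact p = 0.07, adjusted p = 0.19), and at 0 of 32 and 1 of 1381 mouse peaks (adjusted p = 1). Counted anywhere in the peak rather than near its summit, by the same exact test, the core was in 4 of 39 against 12 of 2133 rabbit peaks (adjusted p = 0.0022) and 2 of 32 against 3 of 1381 mouse peaks (adjusted p = 0.025). All chimera peaks, counted in the same way, held the core at 29 of 166 (17.5%). A higher share with the chimera is therefore in part set by the definition of the class.

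The 3 peaks with Sp1 and a CTCF core differed from the GC box promoters. CXXC1 is described above. TPR, a nuclear pore protein (rank 132, chr1:186375344-186375810, start shared with ODR4), had chimera values of 10.8 and 14.9 and rabbit anti-V5 values of 27.8 and 17.1, with summits 47 bp apart. It was in no mouse list of the chimera line but in the V5 lists of both antibodies in the parental line. The third was a repeat near DDX11L17 on chromosome 1 (rank 107), with chimera values of 11.3 and 13.4, rabbit values of 26.9 and 28.5 and mouse values of 35.7 and 45.8, and it was in the V5 lists of all 3 lines. None of the 3 held a GC box within 100 bp of the chimera summit.

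The 6 highest ranked chimera peaks lacked Sp1, but 11 of the 41 peaks in the top quartile of the chimera list had it (26.8%). The 10 highest ranked peaks without Sp1 in unique sequence had chimera values of 16.4 to 29.8 in their replicates. All 10 overlapped a CTCF DBD peak and 3 an Sp1 WT peak. Among all 88 peaks without Sp1 in unique sequence these shares were 77.3% and 37.5%. The highest ranked peak of all had 28.0 and 29.0 and lay 5121 bp from the nearest start, ENSG00000291296 (chr15:77910052-77910945). NBN, a subunit of the complex that senses DNA breaks, held rank 3 (chr8:89983755-89985062, summit 70 bp from the start, in the UTR), with 24.0 and 19.1, a CTCF core and a GC box. ZFP91, a zinc finger protein (rank 4, chr11:58579368-58580083, in an intron), had 19 and 29.8 and was in the rabbit anti-V5 list of the parental line. RFFL, a ubiquitin ligase, and PPRC1, a transcriptional coactivator, followed at ranks 5 and 6, with 18.8 and 21.4, and 18.6 and 21.9. TMBIM6, an inhibitor of cell death in the endoplasmic reticulum, had 17.3 and 24.4 (rank 10), and PTMA, prothymosin alpha, 16.4 and 20.7 (rank 17), and both were in the rabbit anti-V5 list of the Sp1 IDR-LacI line. A peak 27030 bp from the NELL2 start (rank 14) and the pseudogene C2orf69P1 (rank 15) were also among them. These sites were chosen by rank, so their place in the list shows no difference between the classes. In unique sequence the median chimera percentile was 53.3 for the 32 peaks with Sp1 and 50.6 for the 88 without.

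In unique sequence, the 88 peaks without Sp1 fell into 45 that overlapped the CTCF DBD list and not the Sp1 WT list, 23 that overlapped both, 10 the Sp1 WT list alone and 10 neither. The 32 peaks with Sp1 fell into 6, 16, 8 and 2. The 10 in neither had among their nearest starts HLCS, BCR, NUFIP1, PPP5C, PAGR1 and METTL25, at ranks 63 to 155. They were named after their values were seen.

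Exact CTCF cores without Sp1 were in part copies of one another. Of the 15 chimera peaks with a core, 8 were in repeated sequence. Of the 8, 5 lay within 20 kb of the end of an assembled chromosome and 7 within 200 kb. The eighth was at chr2:113604172, rank 9, near DDX11L2. Their 30 bases, shown because 8 peaks carried only 5 distinct sequences, were as follows, with the core in capitals.
DDX11L2, chr2:113604132-113604161, minus strand: tcctagtcgCCAGTAGGGGGCgcaatggca
DDX11L16, chr16:10957-10986, minus strand: gccccggcgCCAGCAGGGGGCgctggccac
ENSG00000282994, chr4:190203351-190203380, plus strand: gccccggcgCCAGCAGGGGGCgctggacag
ENSG00000274446, chr18:97256-97285, minus strand: ccccggccgCCAGCAGGGGGCgcaaggcca
DDX11L17, chr1:181737-181766, minus strand: ccctagtcgCCAGCAGGGGGCgccctggca
The DDX11L2 sequence was also that of the peaks near RPL23AP25 (rank 48) and RPL23AP4 (rank 129), and the ENSG00000282994 sequence that of the peak near RPL23AP88 (rank 126). Over all 28 pairs of the 8 sites, 18 to 30 of the 30 bases were identical. CTCF is known to bind beside the telomere repeats of many chromosome ends. Of these 8 only the DDX11L17 copy overlapped a V5 list. Reads from such copies cannot be assigned to 1 of them with certainty, so each is uncertain as a separate site.

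Repeated sequence was found both with and without Sp1, at 14 of 46 (30.4%) and 31 of 120 (25.8%; Fisher's exact p = 0.56, adjusted p = 0.82), and the difference did not pass. Of the 14 with Sp1, 9 were also on the SNAPf-NLS or parental anti-FLAG list, against 11 of the 31 without. Of the 7 peaks with mouse anti-V5 alone, 6 were such repeats, and the exception was the shared start region of MUS81 and CFL1 (rank 79). Of the 14, 4 lay on 1 unplaced contig of chromosome 1 and 3 beside the centromere of chromosome 10. Anti-FLAG and mouse anti-V5 are both mouse antibodies, and SNAPf-NLS has no DNA-binding domain. The part of the antibody or of the repeated sequence in these overlaps was not tested. With Sp1, 2 sites were in ribosomal DNA: RNA5-8SN2, with chimera values of 20.4 and 14.9, rabbit values of 32.5 and 28.4 and mouse values of 19.8 and 42.8, and RNA5-8SN3 (rank 110), with chimera values of 11.2 and 15 and rabbit values of 32.7 and 35.1. Neither was on a control list or in a V5 list of the other 2 lines, but a ribosomal DNA peak without Sp1 (nearest start RNA5-8SN3, rank 42) was in the rabbit anti-V5 list of the Sp1 IDR-LacI line, and reads cannot be assigned among these copies.

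By gene group, the chimera peaks with Sp1 reached 40 of 20020 protein-coding genes (0.200%) within 1000 bp of a summit and those without 68 (0.340%), too few for a count of 0 in a group of this size to be a result. The rabbit anti-V5 list reached 10.9% of them. Of 12 cohesin and CTCF genes, CTCF was the one reached by the chimera, with Sp1. Among zinc finger genes of the ZNF family, ZNF808 was reached with Sp1 and ZNF219 without, and among histone genes H4C15 without. The other groups, which were ribosomal proteins of the cytosol and of mitochondria, oxidative phosphorylation, proteasome, aminoacyl-tRNA synthetases, SP and KLF factors and protocadherins, held 0 in both classes.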

How the data were processed

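The members and lists were chosen with earlier results of these data known. Per the paper's methods and the submitters' processing notes, the authors used cutadapt 2.6 for trimming, Bowtie2 2.3.5.1 for alignment (build hg38) and SAMtools 1.9 to drop duplicates. Peaks were called for each replicate by MACS3 (given as version 2.2.7.1, p threshold 1e-3), and those with an irreproducible discovery rate of at most 0.1 were kept. The deposited lists hold the −log10 p of each replicate and a global reproducibility score on a −log10 scale. They hold no read numbers, and the read numbers that the study lists were not used here, so depth limits the precision by an unknown amount. Which labelled replicate is the first in a list is not known either.

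Of the peak lists, 11 were used, and 8 further lists and 6 tables of differential regions were not used here. Peaks overlapping by 1 bp counted as shared. Starts and features came from GENCODE 44, on hg38. Repeated sequence means that at least 50% of the 31-base words around a summit have another copy in hg38. Peaks in unique sequence are the others, if also off the SNAPf-NLS and parental anti-FLAG lists. Motifs were searched within 100 bp of summits on both strands. The CTCF core was a 12-base consensus. Shares have 95% Wilson intervals. Fisher's exact and exact binomial tests (SciPy 1.17.1) were two-sided, with Benjamini-Hochberg adjustment over 16 tests and a threshold of 0.05, after the code was tested on simulated lists. These tests treat peaks as independent, which overlapping gene families and repeated copies are not. Named peaks were the 10 highest ranked chimera peaks in both V5 lists, the 10 with the best mean percentile, the 10 highest ranked in neither V5 list and in unique sequence, all with a core and Sp1, and the 5 highest ranked with a core and no Sp1. Gene groups were taken by symbol. Some peaks that these rules select are not reported here by name.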

Additional observations from a re-analysis of the deposited data

How the results depend on the processing

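No paired analysis was possible because every list joins the replicates of its antibody, and for the same reason no list could be remade without a replicate. Ranking by the first or the second replicate value alone gave differences between upper and lower parts of 7.23 and 0 (chimera list), 1.38 and 0.0921 (rabbit list) and -0.846 and -1.13 (mouse list). Over 18 alternative settings, 90 of 120 tested differences kept their direction and their side of the threshold, 4 became 0, and 12 of 16 overlap shares moved by less than their interval. Differences are in percentage points. The shares over rabbit and mouse anti-V5 became 10.5% and 5.26% at an irreproducible discovery rate of at most 0.01 (19 chimera peaks left), and 16.9% and 13.3% with summits within 200 bp, where the CTCF DBD difference became 0.98. Without control peaks, the GC box and start differences passed at 26.2 and 31.6, and turned values were -5.01 (repeated sequence), 0.287 (mouse list ranks), -4.83 (mouse, parental line) and 2.61 (GC box, mouse list). Without repeated sequence, the start difference passed at 26.1, and the CTCF core (0.632), mouse list ranks (0.307) and mouse comparison with the parental line (-5.79) turned. At a rate of at most 0.05 (88 chimera peaks), repeated sequence (-0.0669), chimera ranks (-11.4), rabbit list ranks (-0.536), the mouse comparison with the parental line (-2.27) and the CTCF core in the rabbit list (-0.217) turned. With both V5 lists against neither, the GC box (36.5) and start (31.3) differences passed and repeated sequence turned (-9.83). With V5 lists of equal length the mouse comparison with the Sp1 IDR-LacI line turned (1.20). With motifs within 50 bp, the core in the rabbit list turned (-0.0938). With motifs anywhere in the peak, the GC box in the mouse list (-19.0) and the core in the rabbit list (9.69) passed, and the core in the mouse list turned and passed (6.03). That last value also turned with 1 mismatch (1.91). Starts within 500 bp passed (26.7), while starts within 5000 bp gave 7.93 and summits within 200 bp gave a start difference of 10.7, against 19.4 as reported. Apart from the changes that follow from fewer peaks, the cause was not tested.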
